A study of Mus musculus with 9 samples.

Results

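Small nucleolar RNAs (snoRNAs) are short guide RNAs of the nucleolus, and most mammalian snoRNAs are cut out of the introns of longer transcripts. A set of host transcripts codes for no conserved protein and is known mainly for the snoRNAs in its introns. The genes described here are 9 of these noncoding hosts: Gas5, Snhg1, Snhg3, Snhg5, Snhg6, Snhg8, Snhg12, Snhg15 and Zfas1. They were taken by symbol, and each symbol matched 1 row among the 53679 gene rows of the counted table. All 9 passed the filter on low counts that left 15348 genes for testing.

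The levels were measured in CD8+ T cells of C57BL/6 mice, the lymphocytes that kill infected and tumour cells, after 3 days of activation in culture. The 3 groups were Tc0 cells without added agent, Tc0 cells activated with coenzyme A (CoA), and Tc22 cells without added agent. Tc0 is the usual name for CD8+ T cells stimulated in the absence of polarising cytokines, Tc22 for those secreting interleukin-22, and CoA is the acyl carrier that cells build from pantothenate (vitamin B5). Mice 715, 725 and 728 each gave 1 library to every group, so each group held 3 libraries and the comparisons were made within mice. No source used here gives the age of the mice or the culture conditions of the Tc22 cells.

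As background, transcription of a snoRNA host serves the snoRNA, which is released from the debranched intron and bound by proteins. Box C/D snoRNAs guide methylation of ribosomal RNA with fibrillarin, and box H/ACA snoRNAs guide its pseudouridylation with dyskerin (Dkc1). Gas5 was first found as a transcript that builds up in growth-arrested cells. Spliced Gas5 and other hosts begin with a pyrimidine-rich 5′ terminal oligopyrimidine (TOP) sequence like that of ribosomal protein mRNAs. Such spliced RNAs are loaded on ribosomes and removed by nonsense-mediated decay, so their level depends on both transcription and translation. Gas5 RNA also binds the glucocorticoid receptor.

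The start sites of the hosts are shown because this pyrimidine run is the feature that links the family to translation. RefSeq promoter windows (build GRCm38.p6, 250 bases before to 50 bases after a start) were available for 8 of the 9 genes, and Snhg6 was not among them. Each line gives 30 bases before the annotated start and 30 bases from it on, 5′ to 3′ on the strand of the gene. Capitals mark the run of at least 5 bases, each C or T, that begins nearest the start and within 10 bases of it. For Gas5 the second of its 2 RefSeq windows is shown, the one that held a run. The annotation used for positions (GENCODE M21) lists more starts, 20 for Gas5 and 17 for Snhg1, and these were not searched. In Snhg15, which had no such run, capitals mark the letters CACGTG, and in Zfas1 nothing is marked.
Gas5 (chr1:161035136-161035195, plus strand): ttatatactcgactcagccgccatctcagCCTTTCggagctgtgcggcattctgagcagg
Snhg1 (chr19:8723457-8723516, plus strand): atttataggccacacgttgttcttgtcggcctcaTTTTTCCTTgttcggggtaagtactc
Snhg3 (chr4:132353657-132353716, minus strand): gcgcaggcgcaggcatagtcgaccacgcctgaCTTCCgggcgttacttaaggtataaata
Snhg5 (chr9:88522868-88522927, minus strand): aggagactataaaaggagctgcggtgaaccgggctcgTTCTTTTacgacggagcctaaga
Snhg8 (chr3:123508307-123508366, minus strand): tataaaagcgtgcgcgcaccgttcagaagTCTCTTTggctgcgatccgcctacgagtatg
Snhg12 (chr4:132308648-132308707, plus strand): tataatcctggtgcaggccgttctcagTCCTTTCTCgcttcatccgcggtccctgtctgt
Snhg15 (chr11:6528731-6528790, minus strand): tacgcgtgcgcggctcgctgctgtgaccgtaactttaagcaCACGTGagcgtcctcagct
Zfas1 (chr2:167062904-167062963, plus strand): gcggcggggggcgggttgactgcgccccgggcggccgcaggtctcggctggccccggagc

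A run of this kind stood at an annotated start in 6 of the 8 genes, namely Gas5, Snhg1, Snhg3, Snhg5, Snhg8 and Snhg12. Counted by window, it stood in 6 of 9 (66.7%), since the first of the Gas5 windows held none. The same search on the strand of the gene found a run in 38.0% of all 32851 RefSeq windows and in 37 of 68 windows of ribosomal protein genes (54.4%). The run is thus common at mouse starts, and the difference between these shares was not tested. CACGTG, which reads the same on both strands, was found in 7.15% of all windows. These matches describe letters in a window and show no binding or translation.

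The 9 genes spanned a wide range of levels. In the Tc0 libraries of mice 715, 725 and 728, Gas5 had 725, 482 and 358 CPM (counts scaled to a common library size), which made it the most abundant of the 9. Per kilobase of merged exons, the Tc0 level was 139 ± 49.7 CPM for Gas5, 72.5 ± 34.8 for Snhg6, 66.3 ± 25.2 for Snhg1, 51.3 ± 10.6 for Snhg5 and 46.6 ± 11.9 for Zfas1 (SD, n = 3). The other hosts were lower per kilobase, with 20.4 ± 4.44 CPM for Snhg8, 17.1 ± 7.34 for Snhg15, 12.4 ± 4.32 for Snhg12 and 12.1 ± 5.10 for Snhg3. Neighbours in this order from Snhg6 to Zfas1, and from Snhg8 to Snhg3, differed by less than the larger of their SDs. Within every mouse Snhg1 was above Snhg5, Snhg5 above Zfas1 and Snhg15 above Snhg12. The other neighbours in these runs changed order between mice. Gas5 stayed first and Snhg3 last with the median transcript length in place of merged exons, a choice made after the values were seen, but the order between them changed.

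Together the 9 genes held between 0.0748% and 0.151% of all counts in a library, and Gas5 alone held 34.8% to 47.7% of their counts. The libraries held 21841034 to 36254631 counts. Libraries of a group differed in the level of the family. The Tc0 library of mouse 715 was the highest of its group for 8 of the 9 genes, and that of mouse 728 was the lowest for 7. With CoA, mouse 725 was highest for 6, mouse 715 for 2, and mouse 728 was lowest for 8. In Tc22 cells, mouse 715 was highest for 9, and mice 725 and 728 were lowest for 5 and 4. With 1 library per mouse and group, mouse and library cannot be told apart, and the same order among all genes was not worked out. The share of mitochondrially encoded counts in the Tc0 libraries was 3.97% in mouse 715, 3.33% in mouse 725 and 2.0% in mouse 728. With CoA it was 4.0%, 3.64% and 2.66%, higher than in Tc0 cells in 3 of 3 mice, and in Tc22 cells 3.33%, 2.01% and 2.3%, lower than with CoA in 3 of 3 mice. The share of replication-dependent histone genes was 0.14%, 0.188% and 0.668% in Tc0 cells, 0.162%, 0.178% and 0.366% with CoA and 0.252%, 0.408% and 0.493% in Tc22 cells, in the same order of mice. It was higher in Tc22 cells than with CoA in 3 of 3 mice. Whether either share plays a part in the changes of the hosts below was not tested.

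**Figure D1:**
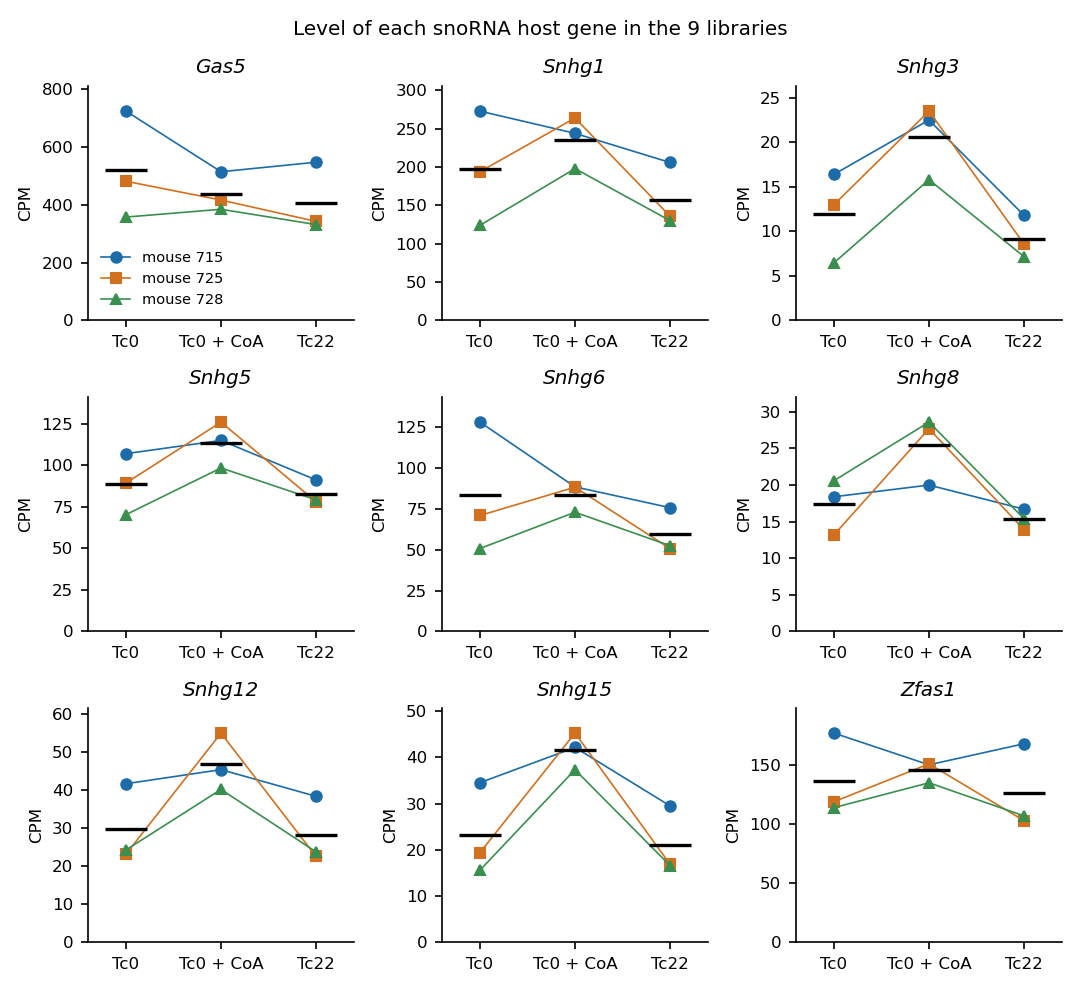
Level of each of the 9 snoRNA host genes in CPM (vertical axes from 0) in Tc0 cells, Tc0 cells with CoA and Tc22 cells. Each point is 1 library, lines join the libraries of a mouse, and black bars are group means; Snhg15 is the gene whose 3 libraries with CoA (37.3 to 45.2 CPM) all lie above the 3 Tc0 libraries (15.6 to 34.5 CPM).

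The labelled cell type was checked against markers. Cd8a, the CD8 alpha chain, ranged from 647 to 860 CPM over the 9 libraries and Cd8b1 from 273 to 445 CPM, while Cd4 reached at most 1.37 CPM. The 7 markers of CD8 T cells summed to 2113 to 2708 CPM in Tc0 cells, 1722 to 2183 CPM with CoA and 2077 to 2588 CPM in Tc22 cells. The summed level of 4 dendritic cell markers was 3.73 to 5.0 CPM in Tc0 cells, 5.46 to 9.37 CPM with CoA and 4.36 to 5.85 CPM in Tc22 cells, most of it Zbtb46. The 4 macrophage and monocyte markers summed to 4.47 to 6.28, 4.52 to 12.8 and 6.1 to 6.87 CPM in the same order. The 3 CD4 T cell markers summed to 7.23 to 15.7 CPM, the 3 natural killer markers to 0.133 to 1.27 and the 3 erythroid markers to 0.145 to 0.442. Adgre1, Hbb-bs, Hba-a1 and Klra8 were at 0 in some library. The part of other cell types in the changes of the hosts was not tested. In bulk RNA, fewer cells that express a gene and less of its RNA per cell cannot be told apart.

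The first comparison asks what activation with CoA did to Tc0 cells. Snhg15, Snhg3 and Snhg12 rose with CoA, and no host fell: 3 of 9 passed an adjusted p of 0.05 (edgeR's quasi-likelihood test, Benjamini-Hochberg over all genes). Of all 15348 genes tested, 12.5% were called higher and 12% lower, or 24.5% in either direction. The hosts' median log2 fold change was 0.36, against -0.01 over all genes. Of the 9 hosts, 8 had a fitted value above 0 and Gas5 had one below it.

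The hosts of box H/ACA snoRNAs gave the 4 largest fitted changes. They also had the lowest mean levels in Tc0 cells, 11.9 CPM (Snhg3) to 29.8 CPM (Snhg12). The hosts of box C/D snoRNAs alone had 83.1 CPM (Snhg6) to 521 CPM (Gas5). Snhg15, which holds Snora9, had 34.5, 19.4 and 15.6 CPM in the Tc0 libraries of mice 715, 725 and 728 and 42.1, 45.2 and 37.3 CPM in those with CoA. The groups did not overlap, which held for 1 of the 9 hosts in this direction and for 14.2% of all genes. Its log2 fold change was 0.93 (SE 0.19, adjusted p = 0.0094, edgeR), higher in 3 of 3 mice. The within-mouse difference was 0.29 in mouse 715, 1.22 in mouse 725 and 1.26 in mouse 728 (log2).

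Snhg3 hosts Snora73a and Snora73b, the U17 snoRNAs that take part in the cleavage of the ribosomal RNA precursor. It had 16.4, 13.0 and 6.47 CPM in Tc0 cells and 22.5, 23.5 and 15.8 CPM with CoA. It was higher with CoA in each mouse, but the lowest library with CoA lay under the highest Tc0 library. The log2 fold change was 0.86 (SE 0.18, edgeR adjusted p = 0.0105).

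Snhg12 holds Snora16a, Snora44 and Snora61 besides the box C/D snoRNA Snord99. Its levels were 41.7, 23.2 and 24.3 CPM in Tc0 cells and 45.4, 55.0 and 40.2 CPM with CoA. Mice 725 and 728 differed between the conditions by 1.24 and 0.72 (log2), and mouse 715 by 0.12. The fitted change was 0.71 (SE 0.20, edgeR adjusted p = 0.0262). Snhg8, the host of Snora24, had 18.4, 13.2 and 20.6 CPM in Tc0 cells against 20.0, 27.7 and 28.6 CPM with CoA. Its change of 0.55 (SE 0.18) did not pass the threshold (edgeR adjusted p = 0.0509), and DESeq2 called it (adjusted p = 0.02).

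The 5 hosts of box C/D snoRNAs alone did not pass. Snhg5, the host of Snord50a and Snord50b, had 107, 89.3 and 70.3 CPM in Tc0 cells and 115, 126 and 98.4 CPM with CoA (log2 fold change 0.36, SE 0.12, edgeR adjusted p = 0.0526). It was higher in 3 of 3 mice, as were 5 of the 9 hosts in all, and 27.2% of all genes. Snhg5 was near the threshold and depended on the method. DESeq2 called it (adjusted p = 0.044), as did edgeR with other scalings of library size (adjusted p = 0.0486 and 0.0362). It was also called in 3 of the 9 edgeR fits with 1 library left out. Snhg1, the host of Snord22 and 7 shorter snoRNAs, had 273, 194 and 124 CPM in Tc0 cells and 244, 264 and 198 CPM with CoA (0.32, SE 0.16, edgeR adjusted p = 0.177). Zfas1, which holds Snord12, had 150.2, 151 and 135 CPM with CoA against 177, 119 and 114 CPM (0.12, SE 0.13, edgeR adjusted p = 0.531). Snhg6, the host of Snord87, had 88.4, 88.2 and 72.9 CPM with CoA against 128, 70.9 and 50.7 CPM (0.10, SE 0.18, edgeR adjusted p = 0.743). Snhg1, Zfas1 and Snhg6 were lower with CoA in mouse 715 and higher in mice 725 and 728.

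Gas5 was the host whose fitted value was lower with CoA. Its levels with CoA were 515, 417 and 385 CPM, against 725, 482 and 358 CPM in the Tc0 libraries of the same mice. The within-mouse differences were -0.49, -0.21 and 0.11 (log2), so mouse 728 went the other way, and the fit gave -0.20 (SE 0.13, edgeR adjusted p = 0.283). The split between hosts of the H/ACA and C/D classes was seen in the values afterwards, and the difference between the classes was not tested. Among these hosts, class and level in Tc0 cells cannot be told apart.

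Mouse 715 differed from the other mice in this comparison. The median within-mouse log2 difference of the 9 hosts was 0.10 in mouse 715, 0.50 in mouse 725 and 0.52 in mouse 728, and the number of hosts that were higher with CoA was 5, 8 and 9. Over all genes the median difference lay between -0.01 and 0.01 in each mouse. The scaling of library sizes holds this median near 0, and the spread of other genes by mouse was not worked out. The calls rest on few libraries. When the CoA library of mouse 728 was left out, 0 hosts were called, and 7 were when that of mouse 715 was. Leaving out either library of mouse 725 in this comparison left 1 host called. Calls over all genes moved as well, from 1915 higher and 1848 lower with all libraries. They were 815 and 670 without CoA library 728, and 2360 and 1996 without CoA library 715. Without CoA library 725 they were 756 and 569, and without Tc0 library 725 they were 656 and 504. With no block for mouse, 0 hosts were called (edgeR adjusted p of 0.117 for Snhg15, 0.158 for Snhg3 and 0.161 for Snhg12). Over all genes, 800 were then called higher and 662 lower. Libraries are numbered here by their mouse. Snhg15 had an adjusted p of 0.0543 with CoA library 728 left out and 0.0553 with Tc0 library 725 left out, and Snhg3 had 0.0586 and 0.0536 without the CoA libraries of mice 728 and 725 (edgeR). Snhg12 had 0.137 and 0.094 without the CoA libraries of mice 725 and 728, and 0.149 and 0.073 without the Tc0 libraries of the same mice (edgeR adjusted p).

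The second comparison set Tc22 cells against Tc0 cells. None of the 9 hosts passed edgeR's test at an adjusted p of 0.05, and 0 were called by DESeq2. An unadjusted p under 0.05 was given to 2 of the 9 and to 21.2% of all genes, so the hosts' count is near that of all genes. Of all genes tested, 3.68% were called in either direction and 1.21% lower. All 9 fitted values lay below 0, from -0.41 to -0.07 (log2), with a median of -0.17 against -0.01 over all genes. The hosts' median within-mouse difference was -0.23 in mouse 715, -0.21 in mouse 725 and 0.05 in mouse 728.

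Gas5 and Snhg6 were the hosts with an unadjusted p under 0.05. Gas5 had 548, 343 and 332 CPM in the Tc22 libraries, and the differences from the Tc0 library of the same mouse were -0.40, -0.49 and -0.11 (log2). The fitted change was -0.34 (SE 0.13, edgeR adjusted p = 0.179). Snhg6 had 128, 70.9 and 50.7 CPM in Tc0 cells and 75.7, 50.7 and 52.4 CPM in Tc22 cells, a fitted change of -0.41 (SE 0.18, edgeR adjusted p = 0.231). The ranges of the groups overlapped for both genes. Neither change is therefore called here. Both passed when Tc0 library 728 was left out, with edgeR adjusted p = 0.0289 for Gas5 and 0.0462 for Snhg6; 1114 of 15696 genes were then called lower, against 185 of 15348 with all libraries.

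Of the other hosts, Snhg3 gave -0.32, Snhg1 -0.29, Snhg8 -0.17, Snhg15 -0.12, Zfas1 -0.12, Snhg5 -0.08 and Snhg12 -0.07 (log2 fold change, none called). Zfas1 had 168, 103 and 107 CPM in Tc22 cells against 177, 119 and 114 CPM in Tc0 cells, so each mouse was slightly lower. Gas5, Snhg12 and Zfas1 were lower in 3 of 3 mice, as were 21.2% of all genes.

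The third comparison set Tc22 cells against Tc0 cells with CoA. It shares the CoA libraries with the first comparison, so the changes of a gene in these comparisons are not independent. Snhg3, Snhg15, Snhg12, Snhg8, Snhg1 and Snhg5 were lower in Tc22 cells, 6 of the 9 hosts, where 32% of all genes were called in either direction and 16% lower. The hosts' median log2 fold change was -0.61, against 0.01 over all genes. The groups did not overlap for Snhg3, Snhg5, Snhg8, Snhg12 and Snhg15, with the Tc22 libraries lower, and 21.7% of all genes had such a gap.

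Snhg3 fell furthest. The Tc22 libraries of mice 715, 725 and 728 had 11.8, 8.59 and 7.16 CPM, all below the lowest library with CoA at 15.8 CPM. The log2 fold change was -1.18 (SE 0.18, edgeR adjusted p = 0.00206), and within mice it was -0.94, -1.45 and -1.15. Snhg15 had 29.5, 16.9 and 16.6 CPM in Tc22 cells, where mouse 715 stood well above the others (-1.05, SE 0.19, edgeR adjusted p = 0.0037). These 2 hosts stayed past the threshold when any 1 of the 9 libraries was left out.

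Snhg12 had 38.4, 22.6 and 23.8 CPM in Tc22 cells (-0.78, SE 0.19, edgeR adjusted p = 0.0143), and mouse 715 again was the highest. Snhg8 had 16.7, 13.9 and 15.4 CPM in Tc22 cells, a narrow range below the 20.0 CPM of the lowest library with CoA (-0.73, SE 0.18, edgeR adjusted p = 0.0145). Both are hosts of H/ACA snoRNAs. Snhg1 had 206, 136 and 130.2 CPM (-0.61, SE 0.16, edgeR adjusted p = 0.0192), and its highest Tc22 library lay above the lowest library with CoA. Snhg5 had 91.2, 78.1 and 79.2 CPM (-0.44, SE 0.12, edgeR adjusted p = 0.0191), all below the libraries with CoA.

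Snhg6, Zfas1 and Gas5 did not pass. Their log2 fold changes were -0.51 (SE 0.18, edgeR adjusted p = 0.0577), -0.24 (SE 0.13, edgeR adjusted p = 0.192) and -0.14 (SE 0.13, edgeR adjusted p = 0.435). Gas5 had 0.09 in mouse 715 and -0.28 and -0.22 in the others. In all, 7 of the 9 hosts were lower in 3 of 3 mice, as were 32.5% of all genes. Snhg6 was near the threshold and depended on the method. It was called by DESeq2 (adjusted p = 0.0213), and by edgeR with no low-count filter (adjusted p = 0.0108), with the compared groups alone (0.0182), and with CoA library 715, Tc0 library 715 or Tc0 library 728 left out (0.00943, 0.0228 and 0.0303). DESeq2 called 7 of the 9 hosts in this comparison, and of all 15348 genes 2337 higher and 2365 lower. With any 1 of 3 libraries left out (CoA of mouse 725, CoA of mouse 728, Tc22 of mouse 725), Snhg1, Snhg5, Snhg8 and Snhg12 were not called, with edgeR adjusted p from 0.0598 to 0.135. Over all genes, these fits called 1244 higher and 1190 lower, 1274 and 1182, and 1148 and 1037, in that order. With all libraries 2456 were called higher and 2457 lower. Snhg5 also had 0.0796 without the Tc22 library of mouse 715, and Snhg8 0.0579 without that of mouse 728. With no block for mouse, Snhg3 and Snhg8 stayed past the threshold (0.0459 and 0.0456) and Snhg15, Snhg5, Snhg12 and Snhg1 did not (0.064, 0.0965, 0.105 and 0.188, edgeR adjusted p).

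**Figure D2:**
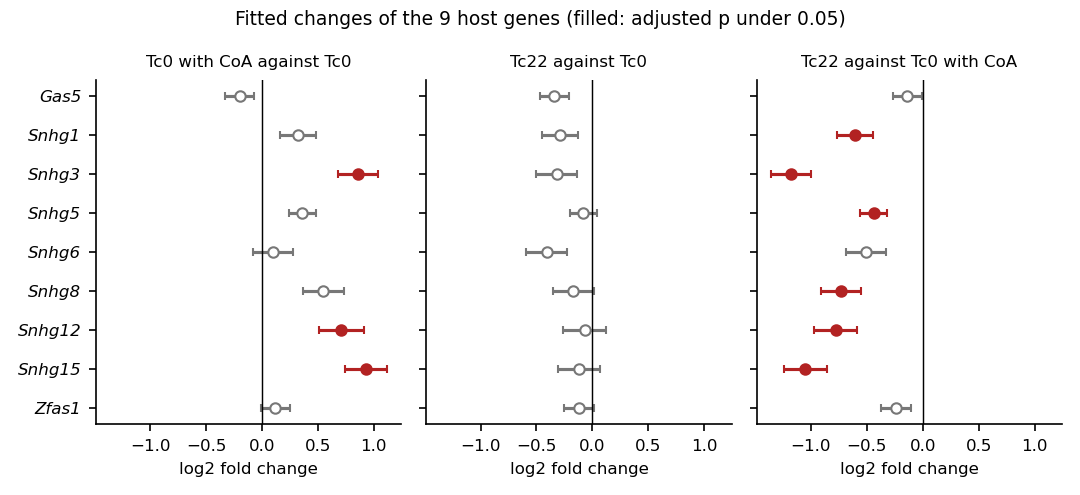
Fitted log2 fold change of each host gene in the 3 comparisons (horizontal axis, group named first minus group named second; whiskers are 1 standard error). Filled red points passed an adjusted p of 0.05: 3 in the left panel (CoA effect in Tc0 cells), 0 in the middle panel (Tc22 against Tc0) and 6 in the right panel (Tc22 against CoA-treated Tc0).

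The snoRNAs themselves have rows of their own in the table. The annotation (GENCODE M21, GRCm38) places 33 snoRNA genes inside the 9 hosts on the same strand, 60 to 205 bases long, with 10 in Gas5 and 8 in Snhg1. Of these, 8 had at least 10 counts in 3 or more libraries, and these were 126 to 205 bases long. A further 24 were listed at 0 in every library, and 23 of those were under 100 bases. The remaining row, of 83 bases, held 3 counts in all. The recovery thus followed length: 8 of the 9 snoRNAs of 100 bases or more had counts, and the other, 1 of 2 overlapping rows named Snora16a, was listed at 0. Libraries were made from fragmented RNA, and the effect of fragment length on short RNAs was not tested. Every box C/D snoRNA of Gas5, Snhg5, Snhg6 and Zfas1 falls in the short class, so their output cannot be read here.

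**Figure D3:**
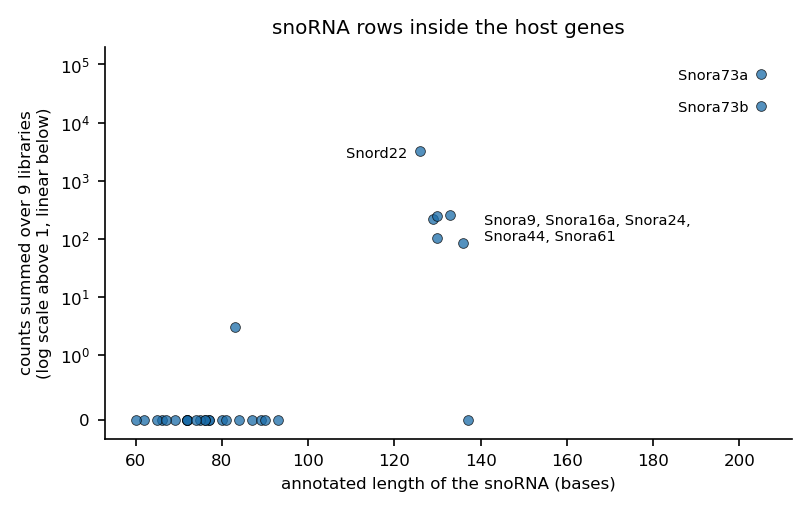
Counts summed over the 9 libraries (vertical axis, log scale above 1 and linear below) against annotated length in bases for the 33 snoRNA rows inside the hosts, 1 point per row. The rows under 100 bases lie at 0 but for 1 with 3 counts, while Snora73a, Snora73b and Snord22 hold 68074, 19252 and 3197 counts.

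The snoRNAs that carry these counts are printed with 1 that does not. Snora73a (chr4:132352775-132352979, minus strand) and Snora73b (chr4:132352322-132352526, minus strand) lie within Snhg3, and capitals mark the 7 of 205 bases at which they differ (96.6% identity). Reads may therefore be split between them. Snord22 (chr19:8725866-8725991, plus strand) comes from Snhg1, with the letters of box D in capitals. Snord47 (chr1:161038082-161038158, plus strand) of Gas5, listed at 0, has letters TGATGA and CTGA in capitals, as in boxes C and D. Sequences are those of the GENCODE M21 transcripts, 5′ to 3′.
Snora73a: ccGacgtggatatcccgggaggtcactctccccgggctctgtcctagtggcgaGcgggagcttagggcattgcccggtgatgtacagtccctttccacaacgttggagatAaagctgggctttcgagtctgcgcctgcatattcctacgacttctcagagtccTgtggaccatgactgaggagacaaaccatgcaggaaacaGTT
Snora73b: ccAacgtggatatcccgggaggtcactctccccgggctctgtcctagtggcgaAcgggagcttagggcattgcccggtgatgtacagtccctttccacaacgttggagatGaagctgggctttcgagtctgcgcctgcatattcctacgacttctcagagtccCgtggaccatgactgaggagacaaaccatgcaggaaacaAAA
Snord22: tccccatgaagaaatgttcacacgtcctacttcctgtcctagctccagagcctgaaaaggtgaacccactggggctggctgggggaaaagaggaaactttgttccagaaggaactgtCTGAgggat
Snord47: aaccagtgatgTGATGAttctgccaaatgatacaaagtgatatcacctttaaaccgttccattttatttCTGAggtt

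With all libraries, none of the 8 counted snoRNAs passed edgeR's test in any comparison. Snora73a passed when Tc0 library 728 was left out, higher with CoA (edgeR adjusted p = 0.0228) and in Tc22 cells against Tc0 (edgeR adjusted p = 0.0494). Of the 33 snoRNA rows, 31 overlap an annotated exon of their host, Snora73a among them, so a host and its snoRNA may share reads. With all libraries, Snora73a had a log2 fold change of 0.28 with CoA (SE 0.14, edgeR adjusted p = 0.154) and Snora73b of 0.21 (edgeR adjusted p = 0.321). The sum of both was 202, 268 and 446 CPM in the Tc0 libraries of mice 715, 725 and 728. It was 289, 354 and 418 CPM with CoA and 294, 298 and 429 CPM in Tc22 cells. Mouse 728 was highest for the snoRNAs in each group and lowest for Snhg3 in each group. The ratio of the summed snoRNAs to Snhg3 was 12.4, 20.7 and 69.0 in Tc0 cells, 12.8, 15.1 and 26.4 with CoA, and 25.0, 34.6 and 59.9 in Tc22 cells. The difference between host and snoRNA changes was not tested. Both snoRNAs also lie within the span of Rcc1 (chr4:132331919-132353605), a gene on the same strand described below. Which of the transcripts they came from was not tested, and the ratio uses Snhg3 alone.

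Snord22 was lower with CoA in 3 of 3 mice, with a log2 fold change of -0.37 that did not pass (SE 0.13, edgeR adjusted p = 0.0681), while its host Snhg1 was fitted at 0.32. In Tc22 cells against Tc0 cells, Snord22 was likewise lower in 3 of 3 mice, as were 21.2% of all genes (-0.41, SE 0.13, edgeR adjusted p = 0.13). Snhg1 was fitted at -0.29 there. Between Tc22 cells and those with CoA, Snord22 changed by -0.04 (edgeR adjusted p = 0.835). Snora9, Snora16a, Snora24, Snora44 and Snora61 held 84 to 256 counts over all 9 libraries and none of them was called.

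**Figure D4:**
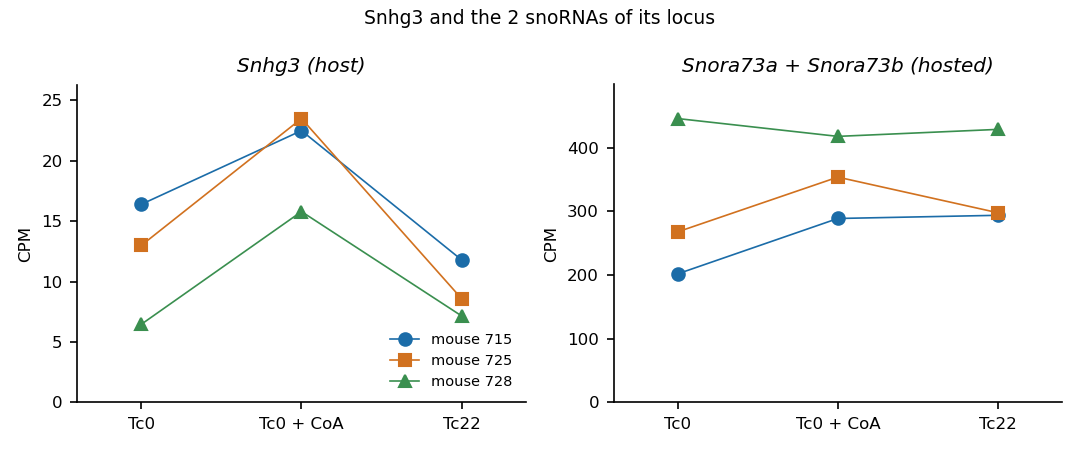
Snhg3 (left) and the sum of Snora73a and Snora73b (right) in CPM by group, 1 point per library with lines joining the libraries of a mouse. Mouse 728 is the lowest of each group on the left (6.47, 15.8 and 7.16 CPM) and the highest on the right (446, 418 and 429 CPM).

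Several hosts share their locus with other genes. No source used here gives the strand setting of the counting, so overlapping genes may share reads. The exons of Snhg3 (chr4:132348014-132353686) overlap those of Rcc1, the exchange factor of the Ran GTPase, on the same strand, and those of Gm17300 on the other. Rcc1 rose with CoA from 62.5 ± 9.64 to 96.3 ± 14.3 CPM (SD, n = 3; 0.62 on the log2 scale, SE 0.15, edgeR adjusted p = 0.0153). Gm17300 rose from 19.8 ± 5.64 to 44.9 ± 7.25 CPM (1.21, SE 0.18, edgeR adjusted p = 0.00308). Both were lower in Tc22 cells than with CoA, at -0.70 (edgeR adjusted p = 0.00655) and -1.22 (edgeR adjusted p = 0.00158), which is the direction of Snhg3. Rcc1 was not called with CoA when the CoA library of mouse 725 or 728 or the Tc0 library of mouse 725 was left out (edgeR adjusted p up to 0.084). What part of these counts came from shared reads was not tested. Mcmdc2, antisense to Snhg6 (chr1:9941959-9944118), rose with CoA by 0.83 (SE 0.23, edgeR adjusted p = 0.0271) at a low level of 3.41 ± 1.89 CPM in Tc0 cells, and Snhg6 did not. Its call was lost without any 1 of the CoA or Tc0 libraries of mice 725 and 728 (edgeR adjusted p up to 0.174). It was lower in Tc22 cells than with CoA (-1.10, edgeR adjusted p = 0.00669; 0.056 without Tc22 library 725).

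Head-to-head neighbours start close to a host on the other strand. The nearest annotated starts of Gas5 (chr1:161034422-161038539) and Zbtb37 lie 80 bases apart, those of Zfas1 (chr2:167062934-167065862) and Znfx1 80, and those of Snhg1 (chr19:8723475-8726443) and Slc3a2 106. Znfx1 also shares exonic positions with Zfas1, and the Zbtb37 gene reaches over an exon of Gas5 without sharing exonic positions, while Slc3a2 and Snhg1 do not overlap. Gm27494, a row inside Zfas1 on its strand, was listed at 0 in every library. Zbtb37 codes for a zinc finger protein, Znfx1 for a helicase of antiviral defence, and Slc3a2 for the heavy chain of amino acid transporters. With all libraries, none of them passed in any comparison by edgeR, and their log2 fold changes with CoA were 0.02 (SE 0.11), 0.41 (SE 0.15) and 0.22 (SE 0.13). With Tc0 library 728 left out, Znfx1 was called with CoA (edgeR adjusted p = 0.0113) and in Tc22 cells against Tc0 (0.0483). With CoA library 715 left out, Slc3a2 was called in Tc22 cells against those with CoA (edgeR adjusted p = 0.0463). Their hosts Gas5, Zfas1 and Snhg1 were not called with CoA.

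The rest of the snoRNA pathway was followed in lists, whose calls are to be read against the shares of all genes given above: 24.5% called with CoA, 3.68% in Tc22 cells against Tc0 and 32% in Tc22 cells against those with CoA. Calls over all genes also changed when 1 library was left out, and such counts of a list are to be read against that. Without Tc0 library 728, 1555 of 15696 genes were called higher and 1114 lower in Tc22 cells against Tc0. With all libraries these were 380 and 185 of 15348. The mRNAs of 19 proteins that build snoRNA particles moved mostly one way with CoA: 12 rose and 0 fell (63.2% called), with a median log2 fold change of 0.56 against -0.01 over all genes. Nolc1, a nucleolar chaperone of these particles, rose from 110.0 ± 8.86 to 239 ± 48.2 CPM (SD, n = 3; 1.11, SE 0.15, edgeR adjusted p = 0.00263). Nop56, a core protein of C/D particles whose gene is itself a snoRNA host, rose from 261 ± 46.3 to 502 ± 93 CPM (0.95, SE 0.14, edgeR adjusted p = 0.00305). Nop10, a core protein of H/ACA particles, rose by 0.81 (SE 0.12, edgeR adjusted p = 0.00315). Without the CoA library of mouse 725 or 728, or the Tc0 library of mouse 725, 6 of the 19 were called, Nolc1, Nop56 and Nop10 among them.

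Between Tc22 cells and CoA-treated cells, 16 of these 19 mRNAs fell and 1 rose (89.5% called), with a median of -0.69. Nop56, Nolc1 and Dkc1 fell by 1.10, 1.15 and 1.01 on the log2 scale (edgeR adjusted p = 0.000875, 0.0011 and 0.00131). Pih1d1, an assembly factor, was the 1 that rose (0.75, edgeR adjusted p = 0.024), a call lost when CoA library 725 or 728, or Tc22 library 715 or 725, was left out (0.0691 to 0.132). The number called was 9 of 19 without CoA library 728, 9 without Tc22 library 725 and 11 without CoA library 725. In Tc22 cells against Tc0 cells none was called by edgeR or DESeq2, and 6 had an unadjusted p under 0.05 (31.6%, against 21.2% of all genes); 4 were called without Tc0 library 728 and 1 without Tc22 library 728.

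Of 29 protein-coding hosts, 6 rose with CoA and 0 fell, with a median of 0.03. That is 20.7% called, under the 24.5% of all genes. Those with the smallest p were Nop56, Dkc1 (0.64, edgeR adjusted p = 0.0121) and Eif4a1, the helicase of translation initiation (0.47, edgeR adjusted p = 0.0123). Dkc1 and Eif4a1 were not called when CoA library 725 or 728, or Tc0 library 725, was left out, where 1 of the 29 was, and 10 were called when Tc0 library 728 was left out. The list is mainly ribosomal protein and translation factor genes. Nop56, Dkc1 and Nop58 are also on the list of particle proteins above, so both lists count them. Between Tc22 cells and CoA-treated cells, 2 of the 29 rose and 5 fell (24.1%, under the 32% of all genes), with a median of 0.06, and Nop56, Dkc1 and Nop58 had the smallest p (-1.10, -1.01 and -1.01). Leaving out 1 library gave 4 to 13 calls, the highest when Tc0 library 728 was dropped and the lowest when CoA library 725 or 728, or Tc22 library 715 or 725, was dropped. None was called in Tc22 cells against Tc0 cells by edgeR or DESeq2, and 7 had an unadjusted p under 0.05 (24.1%, near the share of all genes); 7 were called when Tc0 library 728 was left out.

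Of 13 further noncoding hosts, 7 were measured. Snhg17 rose with CoA from 25.4 ± 6.89 to 41.3 ± 2.12 CPM (SD, n = 3; 0.74, SE 0.16, edgeR adjusted p = 0.0116), and Dancr from 2.20 ± 0.764 to 4.24 ± 1.62 CPM (0.94, SE 0.20, edgeR adjusted p = 0.0104). None of the 7 fell, their median was 0.23, and the share called (28.6%) was near the 24.5% of all genes. Neither was called when CoA library 725 or 728, or Tc0 library 725, was left out (edgeR adjusted p up to 0.0736). Dancr, Snhg17 and Rian were lower in Tc22 cells than with CoA, at -1.44, -0.79 and -3.78 (edgeR adjusted p = 0.00131, 0.00618 and 0.0037), where Rian went from 2.12 ± 0.632 to 0.173 ± 0.123 CPM. None of the 7 was called in Tc22 cells against Tc0 cells by edgeR or DESeq2, and 2 had an unadjusted p under 0.05 (28.6%). Leaving out CoA library 715 gave 1 call there.

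**Figure D5:**
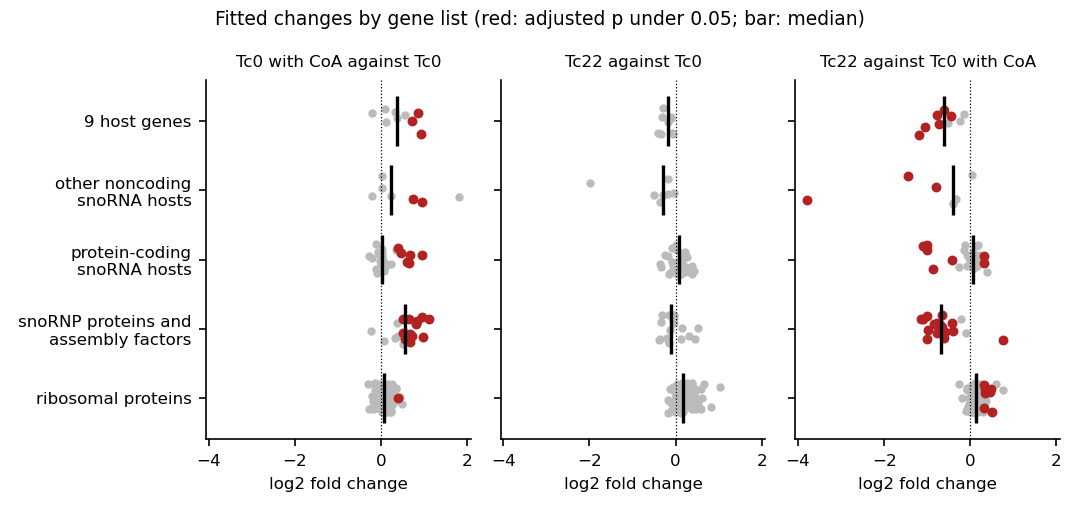
Fitted log2 fold change (horizontal axis) of each measured gene in 5 lists for the 3 comparisons, with red points past an adjusted p of 0.05, grey points not past it and black bars at the median. The snoRNA particle proteins have medians of 0.56, -0.11 and -0.69 and the ribosomal proteins 0.06, 0.17 and 0.14; vertical scatter has no meaning.

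Ribosomal protein mRNAs are known as TOP mRNAs, although the search above found a run in 37 of 68 of their windows. Of 78 measured, 1 rose with CoA, Rps12 (0.39, edgeR adjusted p = 0.0257), and the median was 0.06. In Tc22 cells against those with CoA 7 rose and 0 fell (8.97% called), with a median of 0.14, where the hosts' median was -0.61. One library bears on these counts: when the Tc0 library of mouse 728 was left out, 21 rose and 3 fell with CoA, 32 rose and 1 fell in Tc22 cells against Tc0, and 21 rose and 1 fell in Tc22 cells against those with CoA. Over all 15696 genes, that fit called 2110 higher and 1872 lower with CoA, and 1555 and 1114 in Tc22 cells against Tc0. In Tc22 cells against those with CoA it called 2935 and 2978. Leaving out CoA library 725 or 728, or Tc22 library 715 or 725, gave 0 ribosomal protein calls in Tc22 cells against those with CoA. Leaving out Tc22 library 728 gave 9 calls, all higher, in Tc22 cells against Tc0. Rps12 lost its call when any 1 of the CoA libraries, Tc0 library 715 or 725, or Tc22 library 715 was left out (edgeR adjusted p up to 0.166). In Tc22 cells against Tc0 cells edgeR called none and DESeq2 7, and 29 had an unadjusted p under 0.05 (37.2%, against 21.2% of all genes). Among 20 regulators of TOP mRNAs and translation, 2 rose with CoA: Larp1, which binds TOP starts (263 ± 24.3 to 411 ± 60.2 CPM, SD, n = 3; 0.64, edgeR adjusted p = 0.00854), and Eef1d (0.62, edgeR adjusted p = 0.0131). Neither was called without Tc0 library 725, Eef1d also not without CoA library 725 or 728, and 10 of the 20 were called without Tc0 library 728. Eif4ebp1, a repressor of cap-dependent translation, was the 1 called in Tc22 cells against Tc0 cells (0.59, edgeR adjusted p = 0.0488), where leaving out 1 library gave 0 calls (CoA 728, Tc0 715 or 725, Tc22 715 or 725) to 8 (Tc0 728). In Tc22 cells against those with CoA, 2 of the 20 rose and 4 fell, 1 was called when CoA library 725 or 728 or Tc22 library 725 was left out, and 2 when Tc22 library 715 was.

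Of 19 factors of nonsense-mediated decay and the exon junction complex, 6 rose and 2 fell with CoA (42.1% called), with a median of 0.08. Magohb and Rbm8a of the exon junction core rose (0.66 and 0.46, edgeR adjusted p = 0.0123 and 0.0131), and the endonuclease Smg6 fell (-0.53, edgeR adjusted p = 0.0154). Leaving out CoA library 725 or 728, or Tc0 library 725, gave 0 calls. In Tc22 cells the decapping enzyme Dcp2 fell against Tc0 (-0.58, edgeR adjusted p = 0.0181) as the 1 gene called, with 0 called when Tc0 or Tc22 library 715 or 725 was left out and 6 when Tc0 library 728 was. Against Tc0 cells with CoA, 1 rose and 6 fell in Tc22 cells, led by Magohb (-0.95) and Magoh (-0.67), and 3 or 4 were called when CoA library 728, CoA library 725 or Tc22 library 725 was left out.

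The glucocorticoid receptor, which Gas5 binds, and its targets were followed as a list of 10 genes. With CoA 1 rose and 4 fell. Sgk1 and Zfp36, targets of the receptor, fell (-1.25 and -1.07, edgeR adjusted p = 0.0026 and 0.00378), Nr3c1, the receptor gene, fell (-0.52, edgeR adjusted p = 0.0277), and Cdkn1a rose (0.90, edgeR adjusted p = 0.0102). Leaving out CoA library 728 or Tc0 library 725 gave 2 calls, Sgk1 and Zfp36, and leaving out CoA library 725 gave 3. Sgk1 rose in Tc22 cells against Tc0 (0.84, edgeR adjusted p = 0.0205), a call lost when Tc0 library 715 or 725, or any 1 of the Tc22 libraries, was left out. In Tc22 cells 4 of the 10 were higher than with CoA, and 2 when CoA library 728 or Tc22 library 725 was left out. Gas5 was called in none of these comparisons, and several of these targets answer to other signals as well.

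The levels of the hosts were also compared with each other over the libraries. Over the 9 libraries the Pearson r between the log2 CPM of pairs of hosts ran from -0.05 to 0.98 with a median of 0.82, and 35 of 36 pairs were positive. Snhg8 gave the low values, and without it the lowest r of 28 pairs was 0.51. These points share mice and groups, so the values are descriptions. The same values were not worked out for pairs of other genes, so they show nothing particular to the hosts. Among 9278 genes of at least 5 CPM, Sco1, Maoa, Stx3, Alkbh1 and Mmachc had the highest r with the mean of the hosts (0.986 to 0.992). Gas5 was most like Zfc3h1, Mdm4, Ddx17, Ermard and Trove2 (0.971 to 0.99 among 9286 genes).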

How the data were processed

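Total RNA from the CD8+ T cells was depleted of ribosomal RNA, fragmented, copied with random primers by a stranded kit and sequenced as paired ends, per the labels' protocols. The authors deposited whole-number gene counts in 1 table of 9 libraries, and the 9 single-library files held the same values. STAR 2.5.2, RSEM 1.3.0, GRCm38 and mm10 are named without a role in the submitters' processing notes, so the counts may be rounded estimates. The annotation release and strand setting are not stated in those notes, and 53650 row identifiers matched GENCODE M21 (GRCm38), from which positions and lengths were taken.

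Counts were filtered (filterByExpr by group, 15348 genes), scaled with TMM and modelled on group and mouse with glmQLFit and glmQLFTest, the quasi-likelihood test of edgeR 4.0.16 (R 4.3.3; 4 residual degrees of freedom, biological coefficient of variation 0.158). Benjamini-Hochberg adjustment covered every tested gene, with a threshold of 0.05. The standard error is the absolute log2 fold change over the square root of F, and CPM uses TMM-scaled library sizes. The series' design text matches all 3 populations per mouse. As a check of the replicate block, same-mouse deviations from group means correlated with r from 0.0699 to 0.617 (mean 0.36, 9 pairs).

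The members, the gene lists and the tests were chosen with earlier results of these data known. The genes named are all 9 hosts, up to 3 genes per list and comparison past the threshold with the smallest p, head-to-head neighbours with starts within 1000 bases, overlapping genes, snoRNAs with at least 10 counts in 3 libraries, and the 5 genes most alike to the hosts' mean and to Gas5. Pih1d1, Nr3c1 and a few genes at a second comparison were named after their values were seen. Where no gene of a list passed, the count alone is given. The fit was tested on simulated counts of Tc0 with CoA against Tc0 (15086 genes): 25% of 100 genes changed by 0.5 and 94% of 100 changed by 1 (log2) were recovered, and 3.25% of calls were false. Every simulated gene had the same dispersion, and the changed genes were picked above a floor of counts. Far fewer genes were changed than were called in the data, so these rates need not hold for the data. Alternatives were no replicate block, DESeq2 1.42.0, other scalings, no low-count filter, the compared groups alone and each library left out. The result of 1 marker list is not reported here.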

Additional observations from a re-analysis of the deposited data

How the results depend on the processing

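Without the replicate block, 0 hosts were called for CoA in Tc0 cells in place of 3, and 2 (Snhg3 and Snhg8) in Tc22 cells against CoA-treated cells in place of 6. DESeq2 called 5 for CoA, adding Snhg5 and Snhg8, and 7 for Tc22 against CoA-treated cells, adding Snhg6. Of all 15348 genes it called 1995 higher and 1786 lower for CoA, and 2337 and 2365 for Tc22 against CoA-treated cells. With 1 library left out, host calls ran from 0 to 7 for CoA, 0 to 2 for Tc22 against Tc0 and 2 to 8 for Tc22 against CoA-treated cells. All-gene calls higher and lower for CoA then ran from 656 and 504 (without Tc0 library 725) to 2360 and 1996 (without CoA library 715). For Tc22 against Tc0 they ran from 148 and 53 (without Tc22 library 725) to 1555 and 1114 (without Tc0 library 728). For Tc22 against CoA-treated cells, omitting the same libraries gave 1148 and 1037, and 2935 and 2978. Single-library omission turned some uncalled log2 fold changes: for CoA, Snhg6 ran from -0.113 to 0.349 (-0.038 without CoA library 725) and Zfas1 from -0.011 to 0.325. For Tc22 against Tc0, Snhg5 ran from -0.18 to 0.024 (0.002 without Tc22 library 725), Snhg12 from -0.202 to 0.104 (0.052 without Tc22 library 725) and Snhg15 from -0.245 to 0.086. Of the hosts' other values, 201 with a library left out and 147 under other settings kept direction and side of the threshold. With a library left out, 12 gained a call, 22 lost one and 8 turned; under other settings 8 gained and 7 lost one. The block's absence also lowered list calls, such as 6 for 12 and 10 for 17 among the particle proteins. Over all genes, calls higher and lower for Tc22 against Tc0 were 380 and 185, 87 and 33 without the block, 831 and 444 with no low-count filter, and DESeq2 gave 627 and 335; for CoA 1915 and 1848 became 800 and 662 without the block, and for Tc22 against CoA-treated cells 2456 and 2457 became 1017 and 1080. Other scalings changed no host's direction. The cause of these shifts was not tested. snoRNAs under 100 bases and the 5 snoRNAs of 84 to 256 counts limit what can be read of the hosts' products.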

Other observations

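Other long noncoding RNAs moved more than the hosts in some cases. Of 14 listed, 11 were measured, and with CoA 2 rose and 4 fell (54.5% called, against 24.5% of all genes). H19, an imprinted transcript, rose from 4.8 ± 1.11 to 24.8 ± 12.8 CPM (SD, n = 3), a log2 change of 2.29 (SE 0.31, edgeR adjusted p = 0.00238). Neat1, the scaffold of nuclear paraspeckles, fell from 113 ± 4.53 to 59.9 ± 16.3 CPM (-0.95, SE 0.14, edgeR adjusted p = 0.00277). Mirt1 fell from 7.04 ± 1.34 to 1.75 ± 0.274 CPM (-1.99, SE 0.21, edgeR adjusted p = 0.000887). All 3 stayed past the threshold when any 1 library was left out and without the replicate block. In Tc22 cells H19 had 3.65 ± 0.831 CPM, Neat1 117 ± 24.9 CPM and Mirt1 6.06 ± 0.565 CPM, and none of the 11 was called against Tc0 by edgeR or DESeq2, while 3 had an unadjusted p under 0.05 (27.3%, against 21.2% of all genes). Without the Tc0 library of mouse 728, 4 of the 11 were called in that comparison. Of all 15696 genes, 1555 were then called higher and 1114 lower.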
